A study of Homo sapiens with 8 samples.

Results

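The promoters of the genes for the cytosolic ribosomal proteins were examined in H3K4me3 ChIP-seq peak lists of U2OS cells, a human osteosarcoma line. The genes were chosen by name alone: protein-coding genes of GENCODE release 44 called RPL or RPS with a number, RPSA, and RPLP0, RPLP1 and RPLP2. Kinase genes (RPS6K), paralogues with an L suffix, pseudogenes, 3 read-through genes and RPS19BP1, which encodes a partner of a ribosomal protein, were left out. This gave 79 promoters of 20033 protein-coding promoters in all, 46 for the large and 33 for the small subunit, on 22 chromosomes with 12 on chromosome 19. The study compared 3 wild-type (WT) clones with 3 clones in which the gene for ZBTB48, a transcriptional activator and telomere-binding factor, was knocked out (KO). Peak lists of a histone mark do not show the knockout itself, and the genotypes were taken from the labels. All 6 clones had received 250 U/ml of IFNγ for 24 h, so the treatment was shared and no untreated cells enter the comparison. Each library came from 1 clone of a single cell line (WT_3, WT_4 and WT_5, here WT replicates 1 to 3, and KO_C3, KO_C5 and KO_E2, here KO replicates 1 to 3), and the spread between libraries is therefore a spread between clones.

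Cytosolic ribosomal proteins assemble with the ribosomal RNAs into the small subunit, which reads the mRNA, and the large subunit, which joins amino acids. Their genes are transcribed in nearly every dividing cell at high and coordinated levels, and most of their mRNAs begin with a C followed by a run of pyrimidines, the 5′ terminal oligopyrimidine (TOP) sequence through which mTOR signalling controls their translation. H3K4me3, the trimethylated form of lysine 4 on histone H3, marks nucleosomes around the starts of active genes, and it spreads mainly into the transcribed side.

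The starts of the genes are shown first, because every distance below is counted from them. In each line the 20 bases from the annotated 5′ end follow 40 bases of upstream sequence, and capitals mark the pyrimidine run that begins at the 5′ end. The first set holds promoters with a TOP start, including the members described in detail below and RPL39, which had the longest run of 19 bases. On GRCh38 the windows lay as follows: RPLP0 at chr12:120201092-120201151 (minus strand), RPSA at chr3:39406680-39406739 (plus strand), RPS6 at chr9:19380217-19380276 (minus strand), RPS19 at chr19:41860215-41860274 (plus strand), RPL5 at chr1:92832000-92832059 (plus strand), RPL11 at chr1:23691766-23691825 (plus strand), RPS14 at chr5:150449720-150449779 (minus strand), RPS2 at chr16:1964807-1964866 (minus strand), RPL28 at chr19:55385892-55385951 (plus strand) and RPL39 at chrX:119791611-119791670 (minus strand).
RPLP0: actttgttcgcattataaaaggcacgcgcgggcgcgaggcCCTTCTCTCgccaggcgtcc
RPSA: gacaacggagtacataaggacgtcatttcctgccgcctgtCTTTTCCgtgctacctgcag
RPS6: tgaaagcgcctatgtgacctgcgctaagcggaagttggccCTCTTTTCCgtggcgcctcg
RPS19: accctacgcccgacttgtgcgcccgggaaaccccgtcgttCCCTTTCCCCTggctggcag
RPL5: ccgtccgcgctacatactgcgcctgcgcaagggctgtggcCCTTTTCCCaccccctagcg
RPL11: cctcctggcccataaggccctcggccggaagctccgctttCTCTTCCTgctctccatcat
RPS14: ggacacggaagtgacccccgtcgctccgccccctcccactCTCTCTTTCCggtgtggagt
RPS2: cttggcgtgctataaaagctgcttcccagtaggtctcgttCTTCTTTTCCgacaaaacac
RPL28: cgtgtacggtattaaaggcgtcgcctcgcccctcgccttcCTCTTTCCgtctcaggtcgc
RPL39: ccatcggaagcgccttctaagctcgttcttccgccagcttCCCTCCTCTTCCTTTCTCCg
The second set holds promoters whose annotated 5′ end had no TOP start, for contrast. They were RPL3 at chr22:39319604-39319663 (minus strand), RPL4 at chr15:66504836-66504895 (minus strand), RPL32 at chr3:12841546-12841605 (minus strand) and RPS4X at chrX:72277229-72277288 (minus strand), where RPL3 had a run of 4 pyrimidines, 1 short of the criterion.
RPL3: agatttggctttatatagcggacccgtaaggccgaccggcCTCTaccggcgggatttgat
RPL4: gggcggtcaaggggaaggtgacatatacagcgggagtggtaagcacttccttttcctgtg
RPL32: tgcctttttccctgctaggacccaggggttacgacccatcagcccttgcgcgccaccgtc
RPS4X: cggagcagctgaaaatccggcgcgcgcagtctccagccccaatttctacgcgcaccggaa
A TOP start, here a C followed by at least 4 pyrimidines, was found at 59 of the 79 promoters (74.7%) and at 4.59% of all protein-coding promoters. The first base was a C in 79.7% of the ribosomal protein genes and in 10.7% of all genes, and the median run was 7 bases. Fixed letters were also searched on both strands from 250 bases before to 50 bases after the 5′ end, and none of these words is contained in another. CCGGAAG, the core bound by ETS factors, was present at 34.2% of the ribosomal protein promoters against 14.1% of all promoters, and GCCATC, the core of the YY1 site, at 29.1% against 13.1%. The GC box GGGCGG was present at 58.2% against 61.3%, the TATA box TATAAA at 7.59% against 9.71%, and TTAGGG, the telomere repeat that ZBTB48 recognises, at 5.06% against 8.54%. The ratio of observed to expected CpG had a median of 0.92 against 0.775. These matches describe the letters of the windows and are not binding sites that were measured.

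The 6 lists were of 2 kinds, and the split followed genotype only in part. Both lists of the first kind were WT, while WT replicate 3 fell with all the KO lists. Median peak width was 2297 and 2353 bp in WT replicates 1 and 2, against 1487 bp in WT replicate 3 and 1388, 1376 and 1275 bp in the KO replicates. Median fold enrichment was 13.4 and 14 in the first pair and between 4.19 and 4.65 in the other 4 lists. The 2 WT input libraries carry the clone numbers of the first pair in their labels, and whether an input was used for a list is not given in the sources used here. The part of this difference in the results below was not tested, so that each WT value is given per library and WT replicate 3 is also set alone against the KO libraries.

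Nearly all ribosomal protein promoters carried the mark in every clone. A peak lay within 1 kb of the 5′ end in all 6 libraries at 77 of the 79 promoters (97.5%), whereas 65.1% of all protein-coding promoters met the same criterion. Both exceptions, RPS4Y1 and RPS4Y2, the Y-linked copies of the small-subunit gene RPS4X, had no peak in any library. Whether these cells carry a Y chromosome was not tested, so RPS4Y1 and RPS4Y2 are not read as promoters that lack the mark. All other promoters of the group were marked in every library, and the shortfalls by subunit and TOP start below are RPS4Y1 and RPS4Y2 alone. Every one of the 77 promoters with peaks passed at −log10 q of at least 5.03 in its weakest library. All 46 large-subunit genes and 31 of 33 small-subunit genes were in this group. With a TOP start 58 of 59 promoters, and without it 19 of 20, were marked in all libraries.

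The marked domains were long for a promoter. The covered length, meaning how many bp of the window reaching 3 kb to each side of the 5′ end were under a peak, had a median over the ribosomal protein promoters of 4156, 4138 and 2619 bp in WT replicates 1 to 3 and of 2695, 2527 and 2114 bp in KO replicates 1 to 3. The median over all covered promoters was 3274, 3215 and 1955 bp in WT and 1912, 1755 and 1655 bp in KO. Placed among the covered promoters of the same list, the median ribosomal protein promoter stood at percentile 77.4, 79.2 and 82.6 in WT and at percentile 85.8, 87.1 and 77.3 in KO. In all 6 lists 56 of the 77 promoters were above percentile 50, and 3, RPL29, RPL38 and RPS27, were below it in all 6. RPL28, RPL4, RPL7 and RPS12 were above the 90th percentile in all 6. No share over all promoters was computed for these counts over all 6 lists.

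**Figure D1:**
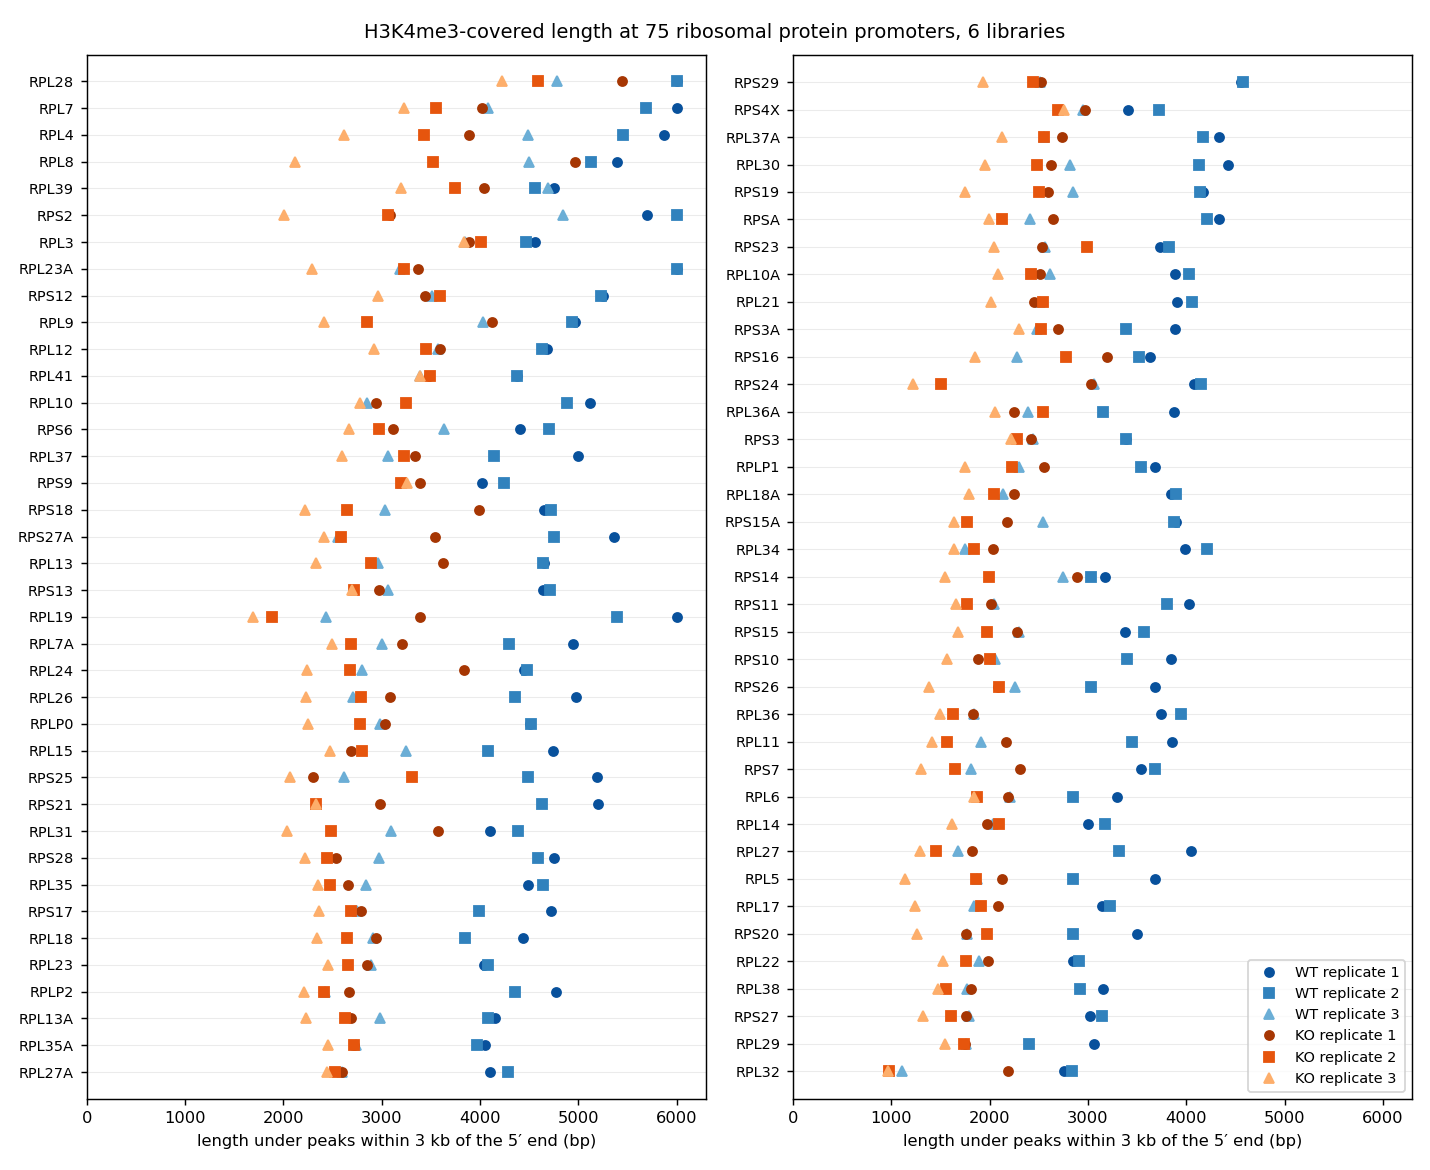
Length in bp under H3K4me3 peaks in the window of 3 kb to each side of the 5′ end (x axis) at 75 of the 77 ribosomal protein promoters with peaks, ordered by their mean, with 1 point for each of the 3 WT libraries (blue) and 3 KO libraries (orange). WT replicates 1 and 2 lie to the right of the other 4 libraries at 74 of the 75 promoters, and the longest domains are those of RPL28, RPL7, RPL4 and RPL8. The same order of libraries was found at 12775 of 14281 promoters of all kinds (89.5%).

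Over all 77 promoters the covered length ran from 2754 to 6001 bp, 2399 to 6001 bp and 1111 to 4840 bp in the WT libraries and from 1748 to 5442 bp, 980 to 4586 bp and 962 to 4226 bp in the KO libraries. The order of the promoters was much the same from clone to clone. Spearman's rho of covered length over the 77 promoters was 0.904 between WT replicates 1 and 2, 0.749 to 0.862 among WT replicate 3 and the KO replicates, and 0.65 to 0.767 between the first pair and the other 4. These are descriptions over promoters that share libraries, and promoters are not replicates.

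Among the widest domains, that of RPL28, a large-subunit protein, covered 6001, 6001 and 4780 bp in the WT libraries and 5442, 4586 and 4226 bp in the KO libraries. The value of 6001 bp is the whole window, so that the true length in WT replicates 1 and 2 is at least as long. The 5′ end of TMEM238 lies within 3 kb of that of RPL28. RPL7, a large-subunit protein, followed with 6001, 5687 and 4084 bp in WT and 4015, 3554 and 3230 bp in KO. The divergent gene RDH10 starts within 1 kb of it, and its domain reached farther upstream than downstream in all 6 libraries. RPL4, whose protein lines the exit tunnel, covered 5874, 5453 and 4483 bp in WT and 3890, 3431 and 2614 bp in KO, and the divergent gene ZWILCH starts within 1 kb of it. RPL8, a protein near the peptidyl transferase centre, covered 5397, 5126 and 4493 bp in WT and 4970, 3524 and 2114 bp in KO without a neighbouring 5′ end, and its KO libraries were spread more widely than those of any other of these 4 genes (SD 1428 bp, n = 3).

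The narrowest domains were those of RPL32, RPL29, RPS27 and RPL38. RPL32 covered 2754, 2842 and 1111 bp in WT and 2186, 980 and 962 bp in KO, with WT replicate 3 below KO replicate 1. RPL29, the gene of a large-subunit protein that mice can live without, covered 3064, 2399 and 1756 bp in WT and 1748, 1743 and 1546 bp in KO. The WT and KO values of RPL29 did not overlap, but WT replicate 3 exceeded KO replicate 1 by only 8 bp. RPS27, a zinc-finger protein of the small subunit, covered 3021, 3139 and 1793 bp in WT and 1755, 1610 and 1325 bp in KO. RPL38, known for its role in the translation of Hox mRNAs in mice, covered 3150, 2919 and 1772 bp in WT and 1808, 1560 and 1479 bp in KO.

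A few further promoters were picked out after their values were seen. RPL39, the gene with the longest pyrimidine run, covered 4752, 4556 and 4694 bp in WT and 4035, 3745 and 3200 bp in KO, and it was the only promoter of the 77 at which WT replicate 3 was not below both WT replicates 1 and 2. RPL41, which encodes the smallest ribosomal protein, covered 4378, 4376 and 3387 bp in WT and 3480, 3487 and 3391 bp in KO, so that the 4 similar lists differed by at most 100 bp. RPS12, a small-subunit gene with 3 snoRNA genes inside it, covered 5251, 5230 and 3516 bp in WT and 3441, 3597 and 2962 bp in KO with no other 5′ end within 3 kb.

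The domains were not centred on the 5′ end but lay mostly over the gene. Where a peak held the 5′ end, its median reach upstream was 1357, 1427 and 752 bp in WT and 848, 768 and 744 bp in KO, and its median reach downstream was 3165, 2779 and 1839 bp in WT and 1958, 1773 and 1365 bp in KO. The same medians over all promoters were 1173, 1228 and 699 bp upstream in WT, 704, 622 and 580 bp upstream in KO, 2000, 1898 and 1203 bp downstream in WT, and 1154, 1079 and 1025 bp downstream in KO. In every list the ribosomal protein promoters exceeded the median of all promoters by more on the downstream side than upstream. The downstream reach was the longer at 63 of the 77 promoters in all 6 lists, and it was at least 1 kb in all 6 lists at 72. For this pair of counts the share over all promoters was not computed. In single lists the downstream side was longer at 89% to 93.1% of the ribosomal protein promoters and at 74.9% to 78.2% of all promoters.

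**Figure D2:**
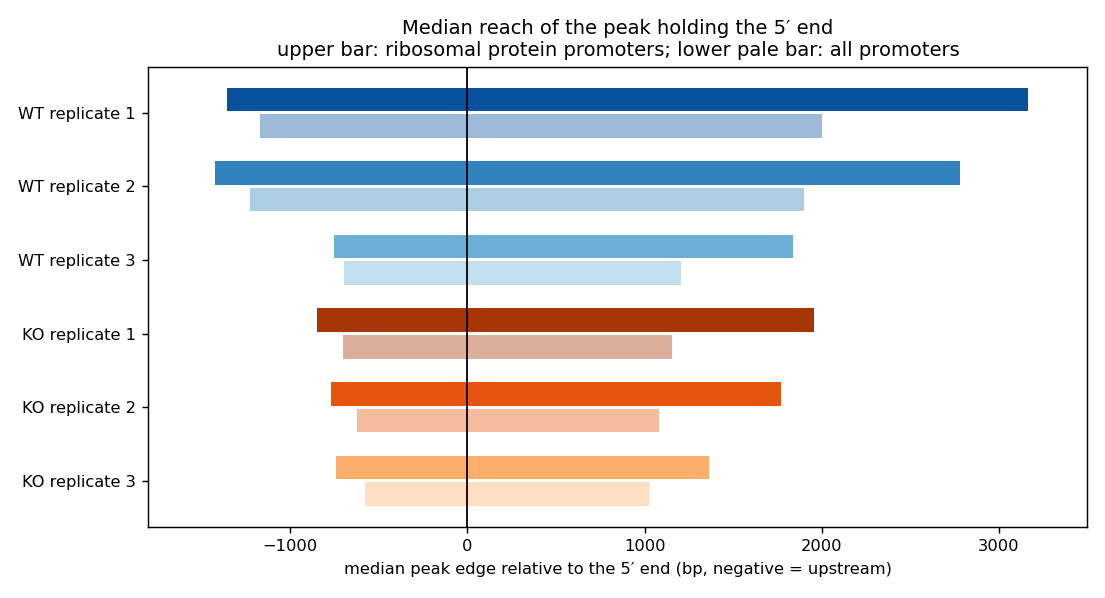
Median position in bp of the upstream and downstream edge of the peak that holds the 5′ end (line at 0) in each of 3 WT and 3 KO libraries, for the ribosomal protein promoters (upper, full bars) and all protein-coding promoters (lower, pale bars). In every library the full bar ends farther downstream than the pale one, from 1365 against 1025 bp in KO replicate 3 to 3165 against 2000 bp in WT replicate 1.

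The wider lists gained on both sides, and more on the downstream side. At the 70 promoters whose 5′ end was inside a peak in all 6 libraries, WT replicates 1 and 2 reached 660 bp farther upstream and 1126 bp farther downstream than the mean of the other 4 libraries (medians), against 544 and 796 bp over 12288 promoters of all kinds. The downstream gain was the larger at 56 of the 70 (80%) and at 72.6% of all promoters. Within the 4 similar lists the upstream edge was the steadier in bp, with a median SD of 85.3 bp against 208 bp for the downstream edge. Over all promoters these SDs were 79.4 and 97.3 bp. The upstream reach was also the shorter, with medians over the group that averaged 778 bp upstream and 1734 bp downstream in these lists. Over these 4 lists the upstream edge varied by 50 bp or less at RPL10, RPL29 and RPL41, and the downstream edge at RPL32 and RPS21. The upstream edge of RPL29 lay 337, 322, 292 and 302 bp from the 5′ end in WT replicate 3 and the KO replicates, and that of RPL41 at 940, 922, 915 and 904 bp. The downstream edge of RPL32 lay at 877, 908, 918 and 883 bp in the same 4 libraries. RPL10, RPL41 and RPS21 were picked out after their values were seen.

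The longest upstream reaches, as a mean over the libraries in which a peak held the 5′ end, were those of RPL23A (3 libraries, all WT), RPL7 and RPL28 (6 each). Over all 6 libraries the order was RPL7 (3050 bp), RPL28 (2957 bp) and RPS2 (2337 bp), with RPL23A at 1770 bp. RPL23A, whose protein sits at the mouth of the exit tunnel, reached 5470 and 4681 bp upstream in WT replicates 1 and 2 and 559 bp in WT replicate 3, while in the KO libraries the peak began 23, 42 and 28 bp downstream of the 5′ end. The 5′ end of RAB34 lies within 3 kb of that of RPL23A. RPL7 reached 3921, 3680 and 3041 bp upstream in WT and 2931, 2427 and 2301 bp in KO, towards RDH10. On the same terms the longest downstream reaches were those of RPL23A (3 libraries), RPL3 (6) and RPS24 (4), while over all 6 libraries they were those of RPL3 (4506 bp), RPS9 (3484 bp) and RPL23A (3410 bp), with RPS24 at 3052 bp. RPL23A reached 3614, 9484 and 1708 bp downstream in WT and 1736, 2480 and 1440 bp in KO. RPL3, a protein of the peptidyl transferase centre, reached 6492, 6163 and 4235 bp downstream in WT and 3418, 3374 and 3354 bp in KO. RPS24, a small-subunit protein mutated in some patients with Diamond-Blackfan anaemia, an inherited failure of red cell formation, reached 5382, 4587 and 2597 bp downstream in WT and 3018, 1507 and 1218 bp in KO.

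At 7 promoters the annotated 5′ end fell outside the peak in at least 1 library, and in every case the peak began just downstream. RPS24 missed it by 3 and 2 bp in KO replicates 2 and 3, and RPS3, a protein at the mRNA entry site, by 1 bp in KO replicate 3. RPS7 missed it by 28 bp in KO replicate 3, and RPL10A, RPLP1 and RPS4X by 14, 51 and 21 bp in KO replicate 2. Together with RPL23A, all of the affected lists were KO lists, which had the narrower peaks. In WT replicate 3, the WT list nearest to them in width, the upstream reach at these genes ran from 28 bp at RPS7 to 559 bp at RPL23A. A peak held the 5′ end at 77 ribosomal protein promoters in WT replicate 3 and at 76, 72 and 73 in KO. Of all promoters with a peak within 1 kb, WT replicate 3 held the 5′ end at 12997 of 13518. The KO replicates held it at 13034 of 13573, 12624 of 13301 and 12582 of 13318. Over all promoters, such misses were thus not confined to KO lists.

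Ribosomal protein genes are short, so that these peaks covered much of each gene. The median gene spanned 4522 bp (range 1335 to 25667 bp) against 22913 bp for all protein-coding genes, and 58 of the 79 were under 6 kb. The first exon had a median of 40 bp against 185 bp. The median share of the gene under the peak that held its 5′ end was 76.2%, 66.9% and 43.9% in the WT libraries and 46.4%, 41.4% and 35.1% in the KO libraries. The peak passed the end of the gene at 16, 14 and 5 genes in WT and at 4, 4 and 1 in KO. Among genes with the 5′ end in a peak, these were 20.8%, 18.2% and 6.49% in WT, against 3.69%, 3.46% and 1.12% over all promoters. In KO they were 5.26%, 5.56% and 1.37%, against 1.24%, 0.792% and 0.668%. RPL41, at 1335 bp the shortest gene of the group, was the only gene of the group covered whole in all 6. The downstream reach showed little relation to the length of the gene. Spearman's rho of the mean downstream reach over 77 genes was 0.0643 with gene length, 0.121 with the length of the first intron and 0.181 with the CpG ratio, given as descriptions since the points share the same libraries. Of the 79 genes, 28 hold snoRNA genes on the same strand, 60 in all. Their median covered length was 4374, 4248 and 2832 bp in WT and 2774, 2642 and 2297 bp in KO, against 4053, 4030 and 2563 bp in WT and 2683, 2473 and 2055 bp in KO for the genes without.

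Another protein-coding 5′ end lay within 1 kb of 14 of the 79 starts (17.7%, against 13.6% of all promoters), and 13 of these were divergent, such as CLHC1 at RPS27A and LRSAM1 at RPL12. Their domains were longer, with medians of 4848, 4613 and 2984 bp in WT and 3146, 2738 and 2416 bp in KO. The 59 promoters with no other 5′ end within 3 kb had medians of 3988, 3965 and 2511 bp in WT and 2624, 2416 and 2012 bp in KO, and stood at percentiles 72.1 to 84.2 of their lists. The difference lay upstream, with a reach of 1920, 1884 and 1212 bp in WT and 1074, 1016 and 980 bp in KO beside a neighbour, and of 1167, 1172 and 553 bp in WT and 553, 587 and 530 bp in KO without such a neighbour.

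The place of these promoters by fold enrichment depended on the kind of list. In WT replicates 1 and 2 their peaks stood at percentile 81.1 and 82.2 of fold enrichment among all peaks of the list (median), whereas they stood at percentile 19.3 in WT replicate 3 and at percentile 19.6, 20.3 and 36.4 in the KO replicates. The median over all promoters was at percentile 72.4 and 72.9 in the first pair and between 51.2 and 57.8 in the other 4. At 52 of the 77 promoters (67.5%) the peak was above the 50th percentile in both lists of the first kind and below it in each of the other 4, which was so at 31.3% of the 13036 promoters of all kinds marked in the 6 libraries. RPL3 stood at percentile 73.2 and 87 in the first pair, at 0.874 in WT replicate 3 and at 1.26, 1.36 and 1.55 in KO, with a fold enrichment of 20.7 and 26.3 in the first pair and between 2.01 and 2.37 in the others. Over the 77 promoters, peak width and fold enrichment had a Spearman's rho of -0.0826 and -0.0258 in the first pair, and of -0.818 in WT replicate 3 and -0.783, -0.815 and -0.813 in KO. Over all promoters the same rho was 0.388 and 0.361 in the first pair and -0.777 to -0.729 in the others. The fold enrichment is averaged over a broad peak. It was compared only within a list, apart from a fixed cut that serves as an alternative below.

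**Figure D3:**
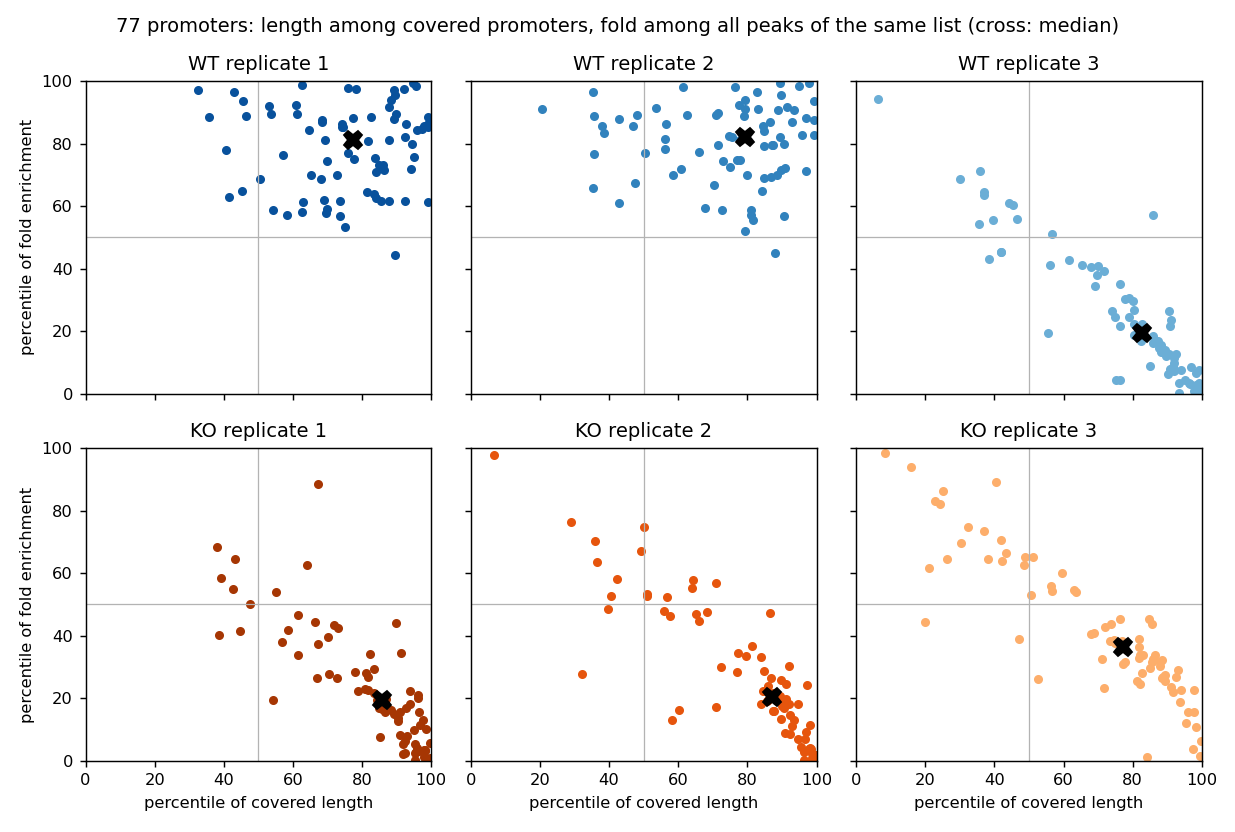
Percentile of covered length among all covered promoters of the same list (x axis) against percentile of fold enrichment among all peaks of that list (y axis) for the 77 ribosomal protein promoters, 1 panel for each library, with a cross at the median. In WT replicates 1 and 2 the cross lies in the upper right corner (fold percentiles 81.1 and 82.2), and in the other 4 libraries in the lower right (19.3 to 36.4).

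The comparison of WT with KO asks whether the domains at these constitutive promoters changed with the loss of ZBTB48. No ribosomal protein promoter passed the test, while each had a larger mean in WT. The WT mean exceeded the KO mean at 77 of 77 promoters, and at 13913 of 14422 promoters of all kinds. The difference ran from 381 bp (RPL3) to 2794 bp (RPS2) with a median of 1186 bp, against a median of 965 bp over all promoters. As a share of the mean covered length of each promoter, the median difference was 39% against 42.2% over all promoters. By limma over 14422 promoters, 0 of 77 were called at an adjusted p under 0.05 with the longer domain in WT (0.146% of all promoters tested) and 0 with the longer domain in KO (0.00693% of all). At an unadjusted p under 0.05 there were 33 (42.9%, against 47% of all promoters) and 0 (against 0.215%), and the lowest adjusted p was 0.0723. An exact permutation test of the 6 libraries cannot go below a p of 0.1, and called none. The limma call rested on WT replicate 3, since without this library 74 of 77 were called longer in WT, and so were 88.1% of all promoters.

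The WT and KO libraries did not overlap at 27 of the 77 promoters (35.1%), with WT longer at each, and 50.8% of all promoters were separated in this way. The opposite order, each KO library above each WT library, was seen at 0 of 77 and at 0.111% of all. WT replicates 1 and 2 exceeded the other 4 libraries at 76 of 77 and at 89.5% of all promoters, so that the separation turned on WT replicate 3. WT replicate 3 was above each KO library at 27 promoters (54.4% of all promoters were) and below each at 1, RPL41, against 2.53% of all. Within the 4 similar lists KO replicate 1 had the longest domain at 40 of 77 promoters (51.9%, against 37.2% of all promoters) and KO replicate 3 the shortest at 73 (94.8%, against 68.9%). Without KO replicate 1, 56 promoters of the group were separated, a count for which no share over all promoters was computed. The median covered length of WT replicate 3 over the ribosomal protein promoters exceeded the mean of the 3 KO medians by 174 bp, less than the SD of these medians (299 bp, n = 3), whereas that of all 3 WT libraries exceeded it by 1192 bp (WT 3638 ± 882 bp, KO 2445 ± 299 bp, SD, n = 3 each). Over all promoters the same differences were 181 and 1041 bp. The reach of WT replicate 3 exceeded the KO mean by 140 bp downstream and fell by 34.3 bp below it upstream.

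**Figure D4:**
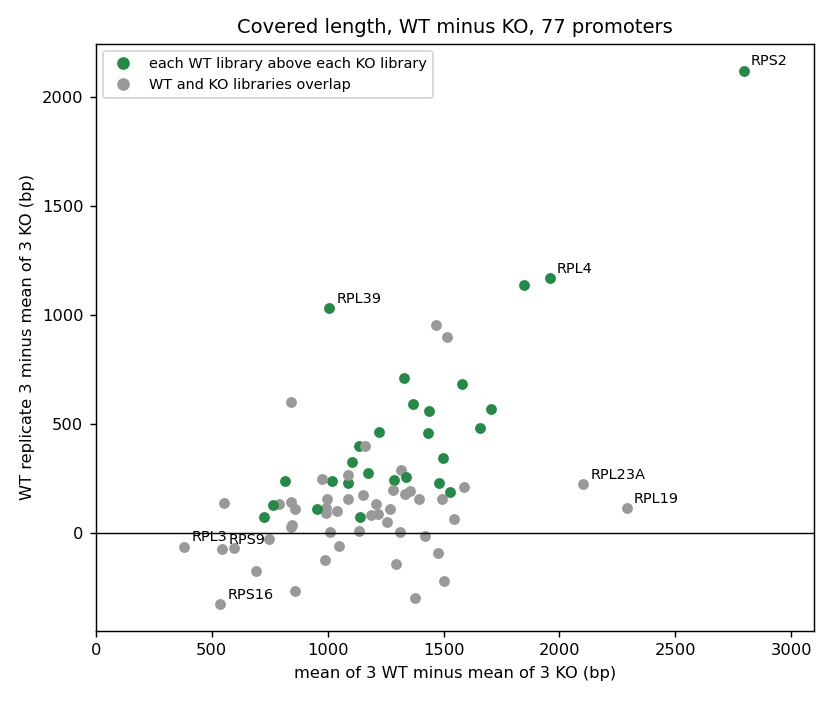
Difference in covered length in bp at each of 77 ribosomal protein promoters, as the mean of 3 WT minus the mean of 3 KO libraries (x axis) and as WT replicate 3 minus the mean of 3 KO libraries (y axis). All points lie to the right of 0 on the x axis, from 381 to 2794 bp, but on the y axis they lie on either side of 0, with RPS2 alone at 2122 bp. On the y axis 63 of 77 are above 0, as are 12146 of 14422 promoters of all kinds.

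RPS2, a small-subunit protein at the mRNA entry site, had the largest difference. Its covered length was 5694, 6001 and 4840 bp in the WT libraries and 3084, 3067 and 2002 bp in the KO libraries (difference 2794 bp, SE 623 bp, limma adjusted p = 0.0723), and the groups did not overlap. Upstream the peak reached 2693, 3871 and 4148 bp in WT and 1183, 1151 and 975 bp in KO, and here WT replicate 3 had the longest reach of all. Downstream it reached 5925, 5970 and 1839 bp in WT and 1900, 1915 and 1026 bp in KO. WT replicates 1 and 2 were thus longer than the KO libraries on both sides, and WT replicate 3 on the upstream side, its downstream reach lying within the KO range. WT replicate 3 exceeded the highest KO library by 1756 bp in covered length, a margin that 28 of 14281 promoters (0.196%) reached and no other ribosomal protein promoter. RPS2 was called when WT replicate 1 was left out (limma adjusted p = 0.0483) and when KO replicate 1 was (0.00703). It was also called without WT replicate 3 (limma adjusted p = 0.000508), where 88.1% of all promoters were. RPS2 was not called without WT replicate 2 (limma adjusted p = 0.134), KO replicate 2 (0.104) or KO replicate 3 (0.228). After quantile normalization it was not called either (limma adjusted p = 0.419). The 5′ end of RNF151 lies within 3 kb of that of RPS2 on the upstream side.

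RPL19 and RPL23A had the next largest differences, and both came from WT replicates 1 and 2. RPL19, a large-subunit protein with a long helix that contacts the small subunit, covered 6001, 5393 and 2435 bp in WT and 3388, 1879 and 1691 bp in KO (difference 2290 bp, SE 811 bp, limma adjusted p = 0.0962). RPL23A covered 6001, 6001 and 3186 bp in WT and 3369, 3222 and 2292 bp in KO (difference 2102 bp, SE 730 bp, limma adjusted p = 0.0962). At both genes WT replicate 3 was within the range of the KO libraries. The smallest differences were those of RPL3, RPS16 and RPS9. RPL3 covered 4555, 4469 and 3849 bp in WT and 3891, 4005 and 3834 bp in KO (difference 381 bp, SE 597 bp, limma adjusted p = 0.554), and its KO libraries agreed closely. RPS16, whose tail reaches the tRNA in the decoding site, covered 3629, 3515 and 2283 bp in WT and 3192, 2780 and 1850 bp in KO. RPS9, another protein of the mRNA entry site, covered 4020, 4242 and 3208 bp in WT and 3393, 3195 and 3253 bp in KO.

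In the small subunit, RPS6, the target of the S6 kinases, covered 4410, 4701 and 3630 bp in WT and 3112, 2977 and 2667 bp in KO (difference 1328 bp, SE 645 bp, limma adjusted p = 0.107). RPS19, the gene most often mutated in Diamond-Blackfan anaemia, covered 4168, 4139 and 2845 bp in WT and 2591, 2505 and 1752 bp in KO. At both genes each WT library was above each KO library. RPS14, whose loss on chromosome 5 underlies the anaemia of the 5q- syndrome, covered 3178, 3029 and 2744 bp in WT and 2892, 1990 and 1548 bp in KO, with KO replicate 1 above WT replicate 3. RPSA, also known as the laminin receptor precursor, covered 4329, 4210 and 2410 bp in WT and 2647, 2122 and 1993 bp in KO. RPS27A, made as a fusion with ubiquitin, covered 5363, 4756 and 2554 bp in WT and 3543, 2584 and 2417 bp in KO. In RPSA and RPS27A WT replicate 3 lay within the KO range.

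In the large subunit, RPLP0, the base of the stalk that recruits elongation factors, covered 4509, 4517 and 2978 bp in WT and 3031, 2778 and 2249 bp in KO (difference 1315 bp, SE 667 bp, limma adjusted p = 0.114). The stalk genes RPLP1 and RPLP2 covered 3678, 3540 and 2295 bp and 4775, 4358 and 2418 bp in WT, and 2555, 2232 and 1745 bp and 2668, 2414 and 2207 bp in KO. At all 3 stalk genes WT replicate 3 was below KO replicate 1. RPL5, which with RPL11 and 5S rRNA restrains MDM2, covered 3679, 2846 and 1870 bp in WT and 2130, 1857 and 1142 bp in KO. RPL11 covered 3856, 3448 and 1910 bp in WT and 2171, 1567 and 1413 bp in KO. Upstream RPL5 reached 678, 469 and 162 bp in WT and 157, 50 and 25 bp in KO, and RPL11 reached 855, 849 and 220 bp in WT and 221, 49 and 153 bp in KO, all below the median of the group in the same list. RPL13A, a protein also described in the repression of inflammatory mRNAs after IFNγ, covered 4156, 4083 and 2982 bp in WT and 2691, 2631 and 2230 bp in KO, and each WT library was above each KO library.

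The differences were of similar size in both subunits and with or without a TOP start. The median difference was 1258 bp over 31 small-subunit and 1158 bp over 46 large-subunit promoters, and 13 (41.9%) and 14 (30.4%) of them were separated with WT longer. It was 1174 bp over 58 promoters with a TOP start and 1207 bp over 19 without, with 20 (34.5%) and 7 (36.8%) separated. Over all promoters 50.8% were separated with WT longer.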

How the data were processed

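H3K4me3 ChIP-seq libraries of 3 WT and 3 ZBTB48 KO clones of U2OS cells were put into groups from the genotype and number that the labels give. The 2 WT inputs were not used. According to the methods, the authors used Trimmomatic for trimming and Bowtie2 2.3.5.1 for alignment (GRCh38), discarded reads that mapped to several places or were duplicates, and ran MACS2 2.1.1.2 in broad mode on each library. Discarding such reads lowers signal where a gene resembles its processed pseudogenes. The deposited lists give a score, which was not used, a fold enrichment ratio, and −log10 p and −log10 q. The authors' fold and −log10 values are averages over a broad peak. They were ranked and correlated within a list only, but 2 alternatives applied the same cut in fold or −log10 q to all lists. The deposited lists hold no counts, so depth is unknown, no counting interval was computed, and a missing peak is a peak not called.

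Peaks of the autosomes, X and Y were measured around 5′ ends from GENCODE release 44 (GRCh38, the build of the lists), taking the MANE Select transcript and otherwise the canonical transcript of each gene. A promoter was called by a peak within 1 kb. Covered length counted the bp under peaks in a window of 3 kb to each side. Reach was the distance from the 5′ end to the edges of a peak. For single promoters this was the peak with most bp within 1 kb of the 5′ end. Group medians and correlations of reach used only libraries in which a peak held the 5′ end. Sequences were read from GRCh38. Covered lengths of promoters covered in at least 1 library were compared by limma 3.58.1 in R 4.3.3 (two-sided, empirical Bayes with trend, Benjamini-Hochberg over all promoters tested, threshold 0.05) and tested on simulated data. Python 3.11.15, numpy 2.4.6 and matplotlib 3.10.9 were used otherwise. Replicates are separate clones.

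The members, lists, tests and alternatives were chosen with earlier results of these data known, among them the difference in width between lists. Members were named by a rule: 10 set by name, the 4 widest, the 4 narrowest, the 3 largest and 3 smallest differences, those without a peak, the 3 longest mean reaches on each side (over libraries whose peak holds the 5′ end), and those with the 5′ end outside a peak. Others are said to have been picked out after their values were seen, or serve as further members of a complex. A few genes are not reported here by name, but they remain in all counts and medians.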

Additional observations from a re-analysis of the deposited data

How the results depend on the processing

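All 27 separated promoters are longer in WT, but the size of the difference depended on WT replicate 3 and on scaling. With WT replicate 3 alone against the KO libraries, the median differences were 174 bp in covered length, 140 bp downstream and -34.3 bp upstream, and 1 promoter was separated with KO longer. The difference also turned at 14 of the 77 promoters. WT replicate 3 stayed above the KO mean at 63 of 77, and at 12146 of 14422 promoters of all kinds. Among those that turned were RPL3 (-61 bp), RPL32 (-265 bp), RPS16 (-324 bp), RPS27A (-294 bp), RPS9 (-72.3 bp), RPL10 (-138 bp), RPL41 (-65.7 bp), RPLP2 (-11.7 bp) and RPS21 (-216 bp). After quantile normalization over the 6 libraries, the median was -104 bp over the 77 promoters and -25.4 bp over all promoters, 31 were higher and 46 lower in WT, and no promoter of the group was called. The named promoters that turned were RPL10A (-126 bp), RPL13A (-119 bp), RPL28 (-400 bp), RPL29 (-203 bp), RPL3 (-1135 bp), RPL32 (-45.6 bp), RPLP0 (-85.3 bp), RPLP1 (-205 bp), RPS14 (-192 bp), RPS16 (-698 bp), RPS27A (-77.3 bp), RPS3 (-434 bp), RPS4X (-724 bp), RPS6 (-109 bp), RPS9 (-898 bp), RPL10 (-203 bp), RPL12 (-518 bp), RPL21 (-146 bp), RPL39 (-597 bp), RPL41 (-924 bp) and RPS12 (-214 bp). With peaks of at least 4-fold enrichment, 13 promoters were marked in all libraries, 4 were separated, the upstream difference was 785 bp and the difference in width percentile was 2.61 against -3.69. The median fold of the group was 22.8 and 24.7 in WT replicates 1 and 2 and 3.2 to 4.06 in the other lists. This cut therefore sets fold values across lists and does not bear alike on them. With a window of 1 kb, the median difference was 203 bp, the percentile difference 0.039, and limma called 3 of 77 promoters (RPS6, RPL21 and RPS15A, the last pair named after their values were seen) and 1.99% of all. Limma called 9 of 77 when only promoters covered in all 6 libraries were tested (15.9% of all). Leaving out 1 library at a time gave 0 to 74 limma calls with WT longer (0.313% to 88.1% of all promoters) and 27 to 77 separated promoters. The median differences were then 933 to 1702 bp in covered length, 268 to 606 bp upstream and 610 to 1274 bp downstream. The replicate block gave 17 calls (24.4% of all), and WT was longer in all 3 same-numbered pairs at 74 promoters. Counts of separated promoters under the alternatives are given for the group alone. The share over all promoters was not computed for them, so they are not read as a trait of the group. Deviations of same-numbered libraries had correlations of -0.00952, 0.0171 and 0.0932, and those of differently numbered libraries ran from -0.118 to 0.0787. With only 3 libraries per genotype, these values cannot settle whether the numbers pair the libraries. The causes were not tested. Merging peaks within 1 kb changed none of these calls. A −log10 q of at least 3 could remove none of the peaks that mark the 77 promoters, since each passed it in every library. The unchanged calls under that cut are thus no check. Counting the read-through genes and RPS19BP1 gave 29 separated promoters.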

Other observations

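Other genes of the translation machinery were described in the same way, with no test. The promoters of 16 further genes with known TOP mRNAs, such as those of elongation factors and PABPC1, all carried a peak in 6 libraries. Their domains were longer still, with medians of 4849, 4524 and 2956 bp in WT and 2875, 2738 and 2448 bp in KO, at percentiles 87.5 to 91.1 of their lists. Their fold enrichment also stood low in WT replicate 3 and the KO libraries, at percentile 7.33, 14.9, 13.6 and 30. The 78 mitochondrial ribosomal protein genes were marked in all libraries at 76 promoters, with domains of ordinary length (3198, 3300 and 1960 bp in WT, 1864, 1686 and 1594 bp in KO, at percentiles 45 to 52.9). WT and KO were separated with WT longer at 55 of the 76 (72.4%) and at 10 of the 16 other TOP genes (62.5%), against 50.8% of all promoters. Limma called 0 in either list (0.146% of all promoters were called with WT longer). At an unadjusted p under 0.05 there were 43 (56.6%) and 11 (68.8%), against 47% of all promoters.

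The 8 paralogues with an L suffix were marked in all libraries at 7 promoters, with medians of 3023, 3088 and 2306 bp in WT and 2286, 2132 and 2017 bp in KO. Of the 7, 6 were separated with WT longer (85.7%, against 50.8% of all promoters). Of 1510 processed pseudogenes of the group with no coding 5′ end within 3 kb, 7, 8 and 5 had their 5′ end in a peak in the WT libraries and 5, 1 and 2 in the KO libraries. Only RPL18P13 had it in all 6 (0.0662%), a gene picked out after its values were seen. Reads shared between near-identical copies were dropped by the authors, so pseudogene signal may be missed.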
